A study of Mus musculus with 4 samples.

Results

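Collagens, laminins and 7 other extracellular matrix genes were followed in peritoneal exudate cells of mice lacking C/EBPε and of wild-type mice. C/EBPε, encoded by Cebpe, is a transcription factor of late granulocyte maturation. The members were all probe sets whose platform annotation gave exactly 1 symbol of a collagen chain, a laminin chain, or Sparc, Fn1, Dcn, Lum, Spp1, Thbs1, Nid1 or Bgn. They were 54 of 13069 probe sets and stood for 42 of 6137 named genes. No probe set was matched to Spp1. The deficient group held cells of C/EBPε -/- mice and the other group cells of +/+ mice, both on a mixed 129/SvEv and NIH Black Swiss background. In each genotype 4 mice aged 6 to 8 weeks had received 2 ml of 4% thioglycollate broth into the peritoneal cavity, a sterile irritant that recruits neutrophils and then monocytes, and cells were washed out 24 h later. Per the labels, counts on stained slides (100 to 200 cells each) put neutrophils at about 60%, monocytes at 30% and lymphocytes at 7 to 10% in either genotype, and the text on how cells of different mice were combined breaks off.

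RNA of each genotype was hybridised once to each of 2 Affymetrix array types, A and B, which carry different probe sets. There is thus 1 array per genotype and type, no replicate, and no test of any difference given here. Of the members 31 lay on A and 23 on B. The title of the type B array of the deficient group names the deficiency and its RNA source description does not. No probe set was named Cebpe, so the deleted gene could not be checked. Of 163 genes measured on both types, 110 had log2 ratios of the same sign on A and B, with a Pearson r of 0.58 across genes, which are not independent of each other. Values are deposited intensities in arbitrary units. A probe set was read against a signal floor, the median of its array type (1037 on A and 690.1 on B). A log2 ratio, with deficient cells on top, was formed where both genotypes exceeded the floor. Where 1 genotype did, a bound against the floor was formed, and where neither did, nothing. The error of 1 ratio was taken from repeat probe sets of the same gene, with an SD of 0.46 log2 units below 3 times the floor and 0.34 above. It does not cover differences between mice or preparations. Repeat probe sets without a ratio were left out of it, and pairs designed from 1 database entry were counted, so it may understate how far probe sets disagree. Bounds make no allowance for this error, so a bound smaller than it fixes no direction.

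Collagens are secreted as trimers of α chains. Types I, III and V build the fibrils of connective tissue, type VI forms beaded microfibrils beside cells, and type IV forms the network of basement membranes together with laminins and nidogen. Decorin, lumican and biglycan are small proteoglycans that bind collagen. Fibronectin, thrombospondin and SPARC are glycoproteins that cells deposit during repair. Fibroblasts and the mesothelial cells that line the peritoneum make most of these proteins, while macrophages are a known source of fibronectin and thrombospondin and platelets store thrombospondin and SPARC.

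Most matrix genes read below the floor in both genotypes, and 4 genes differed by 2-fold or more by ratio. Col3a1, the chain of type III collagen, was 3.25-fold lower in deficient cells, Sparc 2.85-fold lower and Col6a1, a chain of type VI collagen, 2.06-fold lower. Col4a4, a chain of type IV collagen, was 2.56-fold higher. Besides these, Col1a1 was at least 4.83-fold lower by the bound of its type B probe set. By its type A probe sets, which gave its ratios, it lay within 2-fold. Fn1 and Thbs1, the glycoprotein genes that stood clearest of the floor, differed by at most 1.23-fold. In RNA of mixed cells, fewer cells of a type and less RNA per cell cannot be told apart. Among the 54 member probe sets 21 had a ratio, 3 had a bound and 30 (55.6%) were below the floor in both genotypes, against 45.2% of all probe sets below it. By gene, 17 had a ratio, 1 had a bound only and 24 (57.1%) were below the floor, against 38.9% of all named genes.

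**Figure D1:**
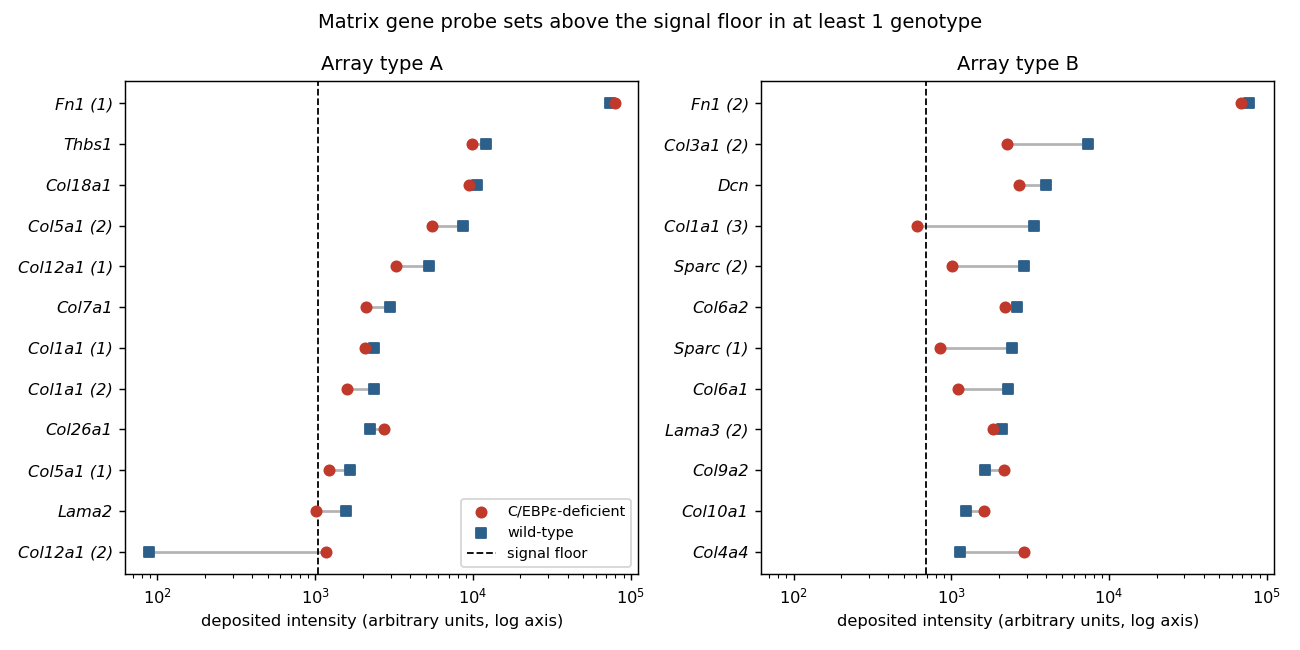
Deposited intensity (arbitrary units, log axis) of the 24 matrix probe sets above the signal floor in at least 1 genotype, on array types A and B, with circles for C/EBPε-deficient cells, squares for wild-type cells and a dashed line for the floor. A number in brackets tells probe sets of 1 gene apart. The widest gaps with wild-type higher are Col3a1, Col1a1 and Sparc on type B, and Fn1 lies far right of the floor in both genotypes.

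Promoter sequence is shown for the 4 genes past 2-fold by ratio, since they are those on which the comparison turns. RefSeq promoters of GRCm38.p6, 250 bases before the transcript start and 50 after, were matched for 26 of the 42 genes. The C/EBP consensus TTGCGCAA, its loose form TTNNGNAA, the AP-1 site TGANTCA and the TATA box TATAAA were searched on both strands. Capitals below mark any match. The consensus was in none of the 30 matched promoters, against 0.183% of all 32851. The loose form was in 30.0% of them, against 40.7% of all, and the AP-1 site in 3.33%, against 7.81% of all. A TATA box was in 10.0%, against 13.6% of all. Col3a1 held a TATA box from base -117 and 2 overlapping matches to the loose C/EBP form from bases 21 and 22. Col6a1 held an AP-1 match from base -90. Sparc and Col4a4 held none of the 4 motifs in this window. A match is a description of letters and not a site.
Col3a1, GRCm38.p6 chr1:45311288-45311587, plus strand: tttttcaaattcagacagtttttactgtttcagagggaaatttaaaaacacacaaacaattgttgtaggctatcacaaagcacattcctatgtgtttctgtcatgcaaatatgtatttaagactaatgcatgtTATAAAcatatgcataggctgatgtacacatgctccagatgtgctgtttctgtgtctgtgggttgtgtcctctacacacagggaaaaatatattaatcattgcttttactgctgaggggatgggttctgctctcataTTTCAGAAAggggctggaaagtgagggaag
Sparc, GRCm38.p6 chr11:55420031-55420330, minus strand: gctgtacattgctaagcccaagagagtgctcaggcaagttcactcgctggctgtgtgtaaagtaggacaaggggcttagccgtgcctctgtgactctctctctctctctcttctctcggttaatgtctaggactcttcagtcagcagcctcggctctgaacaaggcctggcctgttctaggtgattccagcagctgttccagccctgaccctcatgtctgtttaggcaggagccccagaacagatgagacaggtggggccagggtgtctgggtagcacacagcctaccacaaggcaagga
Col6a1, GRCm38.p6 chr10:76725995-76726294, minus strand: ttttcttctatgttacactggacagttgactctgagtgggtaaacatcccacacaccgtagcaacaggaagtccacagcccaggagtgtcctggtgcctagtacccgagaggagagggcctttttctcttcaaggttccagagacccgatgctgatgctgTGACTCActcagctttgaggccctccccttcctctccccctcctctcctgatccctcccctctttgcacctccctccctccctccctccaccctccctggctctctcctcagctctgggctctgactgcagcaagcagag
Col4a4, GRCm38.p6 chr1:82586800-82587099, minus strand: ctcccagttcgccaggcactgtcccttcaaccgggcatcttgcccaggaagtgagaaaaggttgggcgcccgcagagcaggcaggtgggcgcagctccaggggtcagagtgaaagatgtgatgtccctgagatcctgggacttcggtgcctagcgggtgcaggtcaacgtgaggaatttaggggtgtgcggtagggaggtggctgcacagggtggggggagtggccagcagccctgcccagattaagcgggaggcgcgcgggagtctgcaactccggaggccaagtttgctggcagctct

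Of the 21 member ratios, 4 were lower by 2-fold or more, while 3.44% of all 5902 probe sets with a ratio were (203). One was higher, while 3.39% of all were (200). All 5 were on type B, where 4 of 11 member ratios were lower against 3.73% of all on that type, and 1 was higher against 4.23%. Sparc and Col6a1 lay below 3 times the floor, where 3.73% of type B ratios were lower, and so did Col4a4, where 4.9% were higher. Col3a1 lay above it, where 3.72% were lower and 3.88% higher. None of the 10 member ratios on type A reached 2-fold in either direction, where 3.15% of all were lower and 2.54% higher. The array type therefore moved with these calls, and its part in them was not tested. As genes, 3 of 17 were lower against 3.64% of all genes with a ratio, and 1 was higher against 2.97%.

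The median log2 ratio of the 17 matrix genes was -0.24, against 0.01 for all 3131 genes with a ratio. Below 0 were 13 of the 17, against 48.9% of all genes, although Fn1, Col6a2, Lama3 and Col18a1 turned above 0 under bacterial control scaling (0.18, 0.11, 0.16 and 0.021) and Fn1 also under loess (0.039) and quantile scaling (0.041). By array type, 6 of 7 genes read on A were below 0 with a median of -0.29, and 7 of 10 read on B with a median of -0.21. All genes read on A and on B had medians of 0.02 and -0.04. Bacterial control scaling moved the median of all probe sets itself to 0.21 on A and 0.36 on B. Signs under that scaling, here and below, are to be read against those medians. The median of the matrix genes stayed below 0 under each scaling tried, between -0.36 and -0.16.

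**Figure D2:**
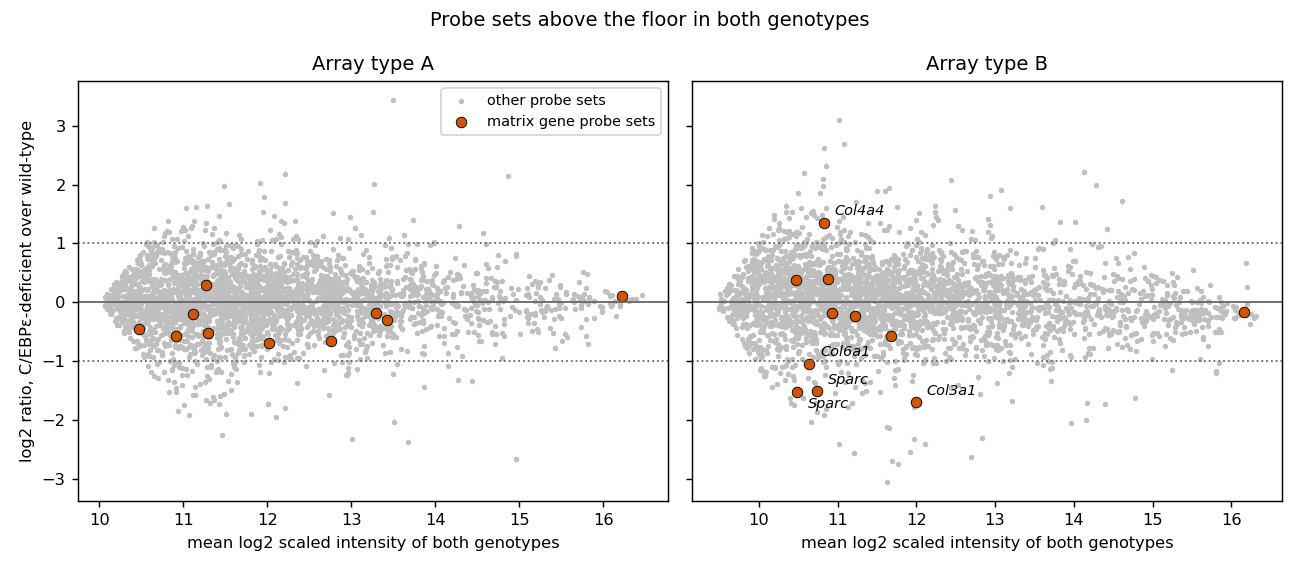
Log2 ratio (C/EBPε-deficient over wild-type) against mean log2 scaled intensity for probe sets above the floor in both genotypes, on array types A and B, with the matrix gene probe sets as large points and 2-fold marked by dotted lines. All 10 matrix points of type A lie between the dotted lines, and 5 of 11 on type B lie outside them.

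The fibrillar collagens were represented by 7 genes, 3 of them with a ratio, and all 3 had ratios below 0 (median -0.65). That median ran between -1.70 with a 30th percentile floor and -0.42 on type A alone, and was -1.35 under bacterial control scaling, -1.18 with a 70th percentile floor and -1.08 without suffixed probe sets. Col3a1, whose product forms fibrils with type I collagen in distensible tissues, read 2265 in deficient cells and 7353 in wild-type cells on type B. Its log2 ratio of -1.70 was 4.94 times the error SD of its signal class, and 0.91% of the type B probe sets with a ratio were as low or lower. A second Col3a1 probe set, on type A, read 347 in deficient cells and 298 in wild-type cells, below the floor in both. It therefore gave no ratio to set beside the first. With scaling to the bacterial control probe sets the Col3a1 log2 ratio was -1.35, so it stayed past 2-fold.

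Col1a1, one of the chains of type I collagen, was read differently by its 3 probe sets. One of type A read 2074 in deficient cells and 2364 in wild-type cells, a log2 ratio of -0.19. The other of type A read 1584 in deficient cells and 2364 in wild-type cells, a log2 ratio of -0.58. The probe set of type B, designed from the same database entry as the second, read 608 in deficient cells and 3335 in wild-type cells. Its deficient value was under the floor, so Col1a1 was at least 4.83-fold lower by this probe set. Of the probe sets that exceeded the floor in wild-type cells alone 20.2% had a bound of 2-fold or more, and on type B 27.4%. All 3 are of the kind that can match several members of a gene family. Col1a2, the partner chain, was below the floor with all 3 of its probe sets in both genotypes, the highest reading -164 in deficient cells and 313 in wild-type cells.

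Col5a1, a chain of type V collagen, which regulates fibril diameter, had 2 measured probe sets on type A. One read 5520 in deficient cells and 8683 in wild-type cells, and the other 1216 in deficient cells and 1672 in wild-type cells. Their log2 ratios of -0.65 and -0.46 pointed the same way and lay within 2-fold. Another Col5a1 probe set lay under the floor in either genotype. Col5a2, which neighbours Col3a1 on chromosome 1 and encodes the other main chain of type V collagen, read 18 in deficient cells and 49 in wild-type cells. Col2a1 and Col11a1, chains of cartilage collagens, were also below the floor in both genotypes.

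The proteoglycans and glycoproteins had 4 genes with a ratio among 6, and all 4 had ratios below 0 (median -0.43), although Fn1 was above 0 on type A and under bacterial control, loess and quantile scaling. The median was -0.16 under bacterial control scaling and -0.096 on type A alone. Sparc, a calcium-binding protein of remodelling tissue, read 1012 in deficient cells and 2886 in wild-type cells by 1 probe set. By the other it read 846 in deficient cells and 2420 in wild-type cells. Both log2 ratios were -1.51 and -1.52, 3.29 times the error SD for the first, and 1.29% of type B ratios were as low or lower. The pair was designed from 1 database entry and is of the family type, so their likeness is not that of independent probes. With a 70th percentile floor the deficient readings lay under it and Sparc had a bound of -0.50.

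Dcn, which encodes decorin, read 2679 in deficient cells and 3974 in wild-type cells, a log2 ratio of -0.57 that lay within 2-fold. Lum, which encodes lumican and lies beside Dcn on chromosome 10, was below the floor with 273 in deficient cells and 40 in wild-type cells. Bgn, for biglycan, was below it too, with 967 in deficient cells and 631 in wild-type cells.

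Fn1 encodes fibronectin, which links collagen to integrins. It read 79576 in deficient cells and 74104 in wild-type cells on type A, and 68954 in deficient cells and 77505 in wild-type cells on type B. The log2 ratios were 0.10 and -0.17, so the types disagreed in sign by less than the error SD. The ratio on type B was 0.18 under bacterial control scaling, 0.039 under loess and 0.041 under quantile scaling. Thbs1, which encodes thrombospondin 1, read 9899 in deficient cells and 12126 in wild-type cells, a log2 ratio of -0.29 and within the error SD of 0.34. The ratios of Fn1 and Thbs1 thus lay within 1 error SD of 0.

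**Figure D3:**
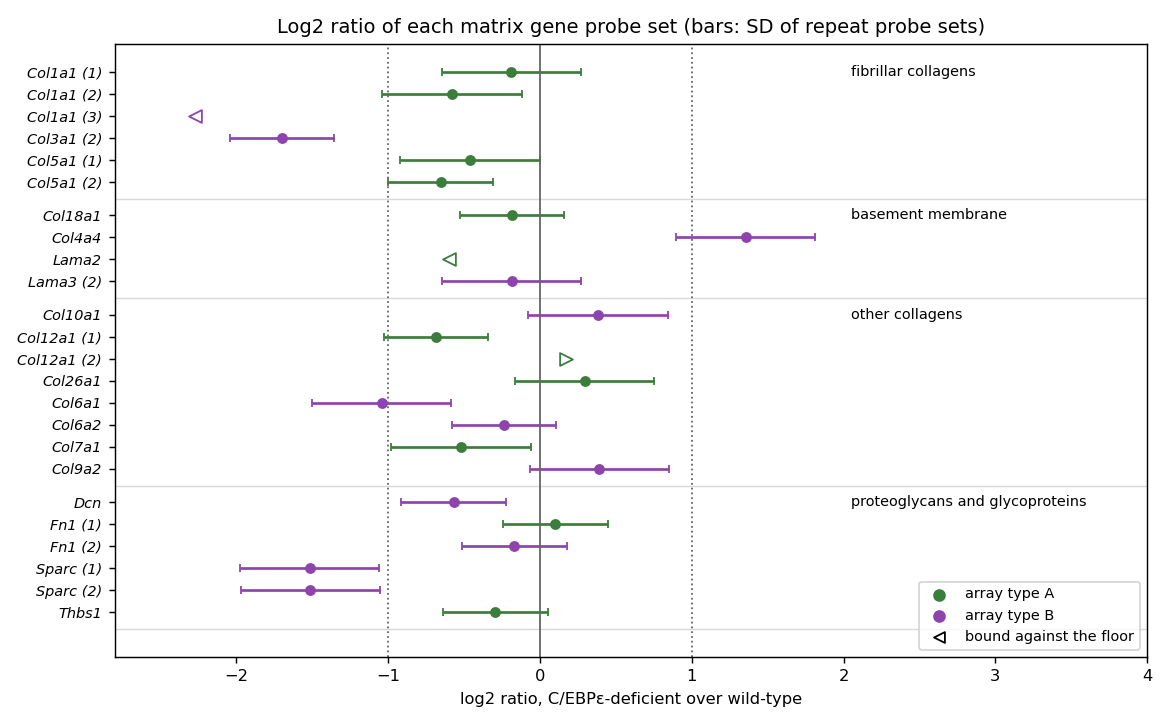
Log2 ratio (C/EBPε-deficient over wild-type) of each matrix gene probe set above the floor in at least 1 genotype, grouped by kind of protein and coloured by array type. Bars are 1 SD of repeat probe sets in the signal class, open triangles are bounds against the floor, and dotted lines mark 2-fold. Col3a1, Sparc, Col6a1 and the bound of Col1a1 lie left of the lower line and Col4a4 right of the upper one.

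Among the other collagens 7 of 13 genes had a ratio, 4 below 0 and 3 above (median -0.24). That median changed sign on type B alone (0.073) and under bacterial control scaling (0.11). Col6a1 read 1111 in deficient cells and 2288 in wild-type cells, a log2 ratio of -1.04, which 3.25% of type B ratios equalled or undercut. Col6a2, its neighbour on chromosome 10 and a chain of the same trimer, read 2204 in deficient cells and 2597 in wild-type cells, a log2 ratio of -0.24. The chains of type VI collagen thus differed in ratio by more than the larger error SD. The Col6a1 call was at its limit, since bacterial control scaling gave -0.69 and a 70th percentile floor a bound of -0.16.

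Col12a1, a fibril-associated collagen, had a log2 ratio of -0.69 by 1 probe set, with 3272 in deficient cells and 5261 in wild-type cells. By its other probe set it read 1165 in deficient cells and 88 in wild-type cells. This probe set exceeded the floor in deficient cells only, at least 1.12-fold higher, a bound within the error SD of 0.46. It was the 1 matrix probe set with a bound in this direction, so its falling short of 2-fold gives no share to read. Of all 671 such probe sets 22.8% had a bound of 2-fold or more, and 28.6% of those on type B, where no matrix probe set had one. Col7a1, the anchoring fibril collagen of skin, read 2089 in deficient cells and 2996 in wild-type cells (log2 ratio -0.52). Col26a1, Col10a1 and Col9a2 had log2 ratios of 0.30, 0.38 and 0.39, each within the error SD of 0.46. Below the floor in both genotypes were Col8a1, Col9a1, Col9a3, Col17a1, Col19a1 and Col22a1.

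The basement membrane genes were 16, of which 3 had a ratio and 12 were below the floor in both genotypes. Col4a4 read 2902 in deficient cells and 1135 in wild-type cells, a log2 ratio of 1.35 that 1.73% of type B ratios equalled or exceeded. It was 2.95 times the error SD, and with a 70th percentile floor it had a bound of 0.51. Col4a3, its neighbour on chromosome 1, read 306 in deficient cells and 271 in wild-type cells and Col4a5 -1 in deficient cells and 374 in wild-type cells. These chains, which join with that of Col4a4 in the basement membrane of the kidney glomerulus, were thus below the floor of type B. The widespread chains of type IV collagen, Col4a1 and Col4a2, read 69 and -1458 in deficient cells and 487 and 303 in wild-type cells, also below the floor.

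Col18a1, the precursor of endostatin, read 9403 in deficient cells and 10669 in wild-type cells, a log2 ratio of -0.18. Lama3, a laminin chain of epithelia, had 1 probe set at -0.19, with 1833 in deficient cells and 2086 in wild-type cells, and 1 below the floor. Lama2, the laminin chain of muscle, read 1004 in deficient cells and 1568 in wild-type cells and was at least 1.51-fold lower. The remaining laminin genes Lama1, Lama4, Lama5, Lamb1, Lamb3 and Lamc1 were below the floor in both genotypes, as were Col15a1 and Nid1, the nidogen gene. Laminins are heterotrimers of α, β and γ chains, and no β or γ chain gene with a probe set exceeded the floor.

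Of the genes that build and cross-link collagen, 12 had a probe set and 7 a ratio. Of the 7 none was lower and 1 higher by 2-fold or more, against 3.64% and 2.97% of all genes with a ratio. Below 0 were 5 of the 7, against 48.9% of all genes (median -0.54, against 0.01 for all genes). The median was -0.22 under bacterial control scaling and -0.28 on type A alone, with a 70th percentile floor and without suffixed probe sets. P4hb and P4ha2, subunits of the prolyl hydroxylases that stabilise the triple helix, stood at -0.57 and -0.92. Serpinh1, the collagen chaperone HSP47, read 1006 in deficient cells and 1679 in wild-type cells, a log2 ratio of -0.74, and Ppib, a prolyl isomerase, stood at -0.54. None of these reached 2-fold. Plod3 and P4ha1 stood at 0.26 and -0.03. Bmp1, the protease that removes the C-terminal propeptide, was 2.88-fold higher with 2751 in deficient cells and 957 in wild-type cells, although a second Bmp1 probe set lay under the floor. Lox and Loxl1, the cross-linking oxidases, were below the floor in both genotypes.

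Other matrix proteins had a median log2 ratio of 0.08 over 9 of 31 genes. Of the 9 ratios 1 was higher by 2-fold or more and none lower, against 2.97% and 3.64% of all genes with a ratio. Equal medians put that median at -0.10. The higher one was Mfap2, a microfibril protein, with 3051 in deficient cells and 1313 in wild-type cells. Srgn, the serglycin core protein of leukocyte granules, stood at -0.02, Tgfbi at 0.09, Ecm1 at 0.55 and the perlecan gene Hspg2 at 0.08. Of the list 3 genes had a bound lower and 3 a bound higher, all short of 2-fold. Tnc, Vcan and Fbn2, for tenascin C, versican and fibrillin 2, exceeded the floor in wild-type cells alone. They were at least 1.68-fold, 1.51-fold and 1.11-fold lower. Agrn, Fbln1 and Eln, for agrin, fibulin 1 and elastin, exceeded it in deficient cells alone. They were at least 1.64-fold, 1.63-fold and 1.11-fold higher. The bounds of Fbn2 (-0.15) and Eln (0.15) were smaller than the error SD of 0.46 and fix no direction. A second Eln probe set lay under the floor in both genotypes.

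Of 23 receptor genes 14 had a ratio, with a median of 0.20 that turned to -0.11 on type A alone and with a 70th percentile floor. By the probe set that stood for its gene no receptor had a ratio of 2-fold or more, but the 3 probe sets of Itga3, an integrin α chain, disagreed. One read 978 in deficient cells and 5733 in wild-type cells, a log2 ratio of -2.55, and the others had log2 ratios of 0.46 and -0.15. Itgb1, the common β chain of collagen and laminin receptors, stood at 0.41 and the hyaluronan receptor Cd44 at 0.43. Rpsa, a ribosomal protein gene listed here as a laminin receptor, stood at -0.37, and at -0.58 and -0.03 by other probe sets. Another Rpsa probe set lay under the floor. Cd47, a receptor of thrombospondin, stood at 0.55, and at 0.33 by another probe set. Itga2, the α chain of a collagen receptor, was above the floor in deficient cells only, at least 3.03-fold higher. Of 18 proteases and inhibitors with a ratio, 2 were lower and 3 higher by 2-fold or more, against 3.64% and 2.97% of all genes with a ratio. Timp1 and Adam8 stood at -2.63 and -2.03. Timp2, Mmp11 and Mmp14 stood at 1.64, 1.29 and 1.08, and the abundantly read cathepsin genes Ctss, Ctsb and Ctsl at 0.17, -0.05 and -0.51. Of 7 TGF-β signalling genes with a ratio 5 were below 0, against 48.9% of all genes, and 2 lower by 2-fold or more, against 3.64%. Their median of -0.12 turned to 0.16 under bacterial control scaling, 0.095 on type A alone and 0.015 with a 30th percentile floor. The 2 lower were Eng, the co-receptor endoglin, at -1.01 and Ski, a repressor of SMADs, at -1.38. The Eng call was at its limit, on type B, where bacterial control scaling moved the median of all probe sets to 0.36. A second Ski probe set went the other way, at 0.25, with 2077 in deficient cells and 1741 in wild-type cells.

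**Figure D4:**
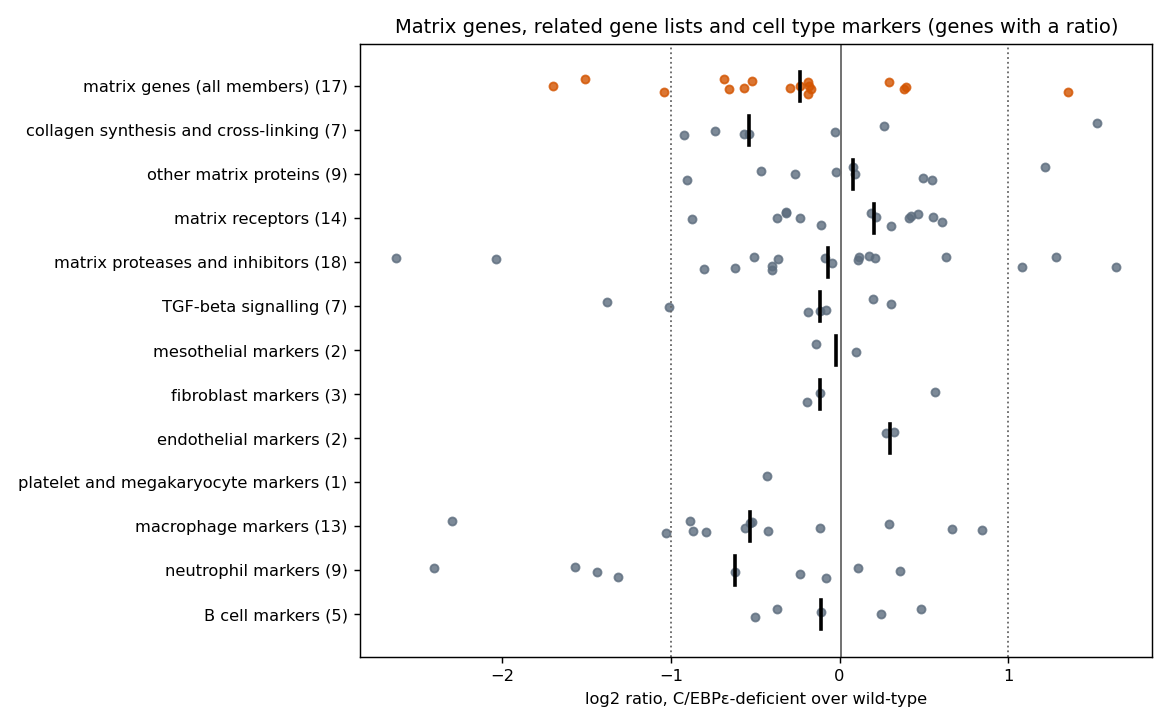
Log2 ratio (C/EBPε-deficient over wild-type) of each gene with a ratio in the matrix genes, in lists of related genes and in cell type marker lists, with the number of genes in brackets. Black bars are list medians where more than 1 gene had a ratio, the solid line is the median of all genes and dotted lines mark 2-fold. The matrix gene median is -0.24 and that of fibroblast markers -0.12. Under bacterial control scaling, not drawn, the latter is 0.23, where the median of all probe sets is 0.21 on A and 0.36 on B.

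Markers of matrix-making cells were mostly below the floor. Of 10 mesothelial markers 6 were below it in both genotypes, against 38.9% of all named genes. These included the defining Msln and Upk3b, which read -510 and -998 in deficient cells and -1761 and 825 in wild-type cells. Wt1 and Krt7 read 1357 and 3289 in deficient cells and 1493 and 3075 in wild-type cells, log2 ratios of -0.14 and 0.10. A second Wt1 probe set read 59 in deficient cells and 499 in wild-type cells, under the floor in both. The keratin gene Krt8 and the cadherin gene Cdh3 were above the floor in 1 genotype only, wild-type cells for Krt8 and deficient cells for Cdh3, short of 2-fold. A second Krt8 probe set lay under the floor in both genotypes. The summed signal of the list, with values below 0 set to 0, was 4771 in deficient cells and 6165 in wild-type cells on A, and 2598 in deficient cells and 2328 in wild-type cells on B. Only 2 of its 8 probe sets on A and 2 of 4 on B exceeded the floor in either genotype. The sums thus include readings under the floor, and their differences give no direction. Of 14 fibroblast markers 8 were below the floor in both, against the same 38.9% of all named genes. These included Pdgfra (181 in deficient cells and 122 in wild-type cells), Thy1 and Cdh11. Pdgfrb, Tagln and Twist2 read 1702, 2969 and 2103 in deficient cells and 1847, 3385 and 1419 in wild-type cells. Their log2 ratios were -0.12, -0.19 and 0.57. Acta2, smooth muscle actin, exceeded the floor in wild-type cells alone and was at least 2.59-fold lower, with 344 in deficient cells and 1790 in wild-type cells. Cnn1 did so too and was at least 1.12-fold lower, a bound within the error SD of 0.46. Fbln1 exceeded the floor in deficient cells alone and was at least 1.63-fold higher, although a second Fbln1 probe set lay under it. The fibroblast list summed to 6613 in deficient cells and 7136 in wild-type cells on A, and to 4014 in deficient cells and 4700 in wild-type cells on B. On each type 3 of its 8 probe sets exceeded the floor in either genotype, so these sums also include readings under it.

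Endothelial markers had 2 ratios, Kdr at 0.32 and Tek at 0.28, and Tie1 was at least 2.07-fold higher, while Cdh5 and Pecam1 were below the floor. The list summed to 3907 in deficient cells and 3120 in wild-type cells on A, and to 6719 in deficient cells and 4578 in wild-type cells on B. On A 2 of its 9 probe sets exceeded the floor in either genotype, and on B 2 of 2. Of the 10 platelet genes listed only 2 had a probe set. Of these Selp had log2 ratios of -0.43 and -0.55 and Gp5 lay under the floor.

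Leukocyte markers were well read. Of 14 macrophage markers 13 had a ratio (median -0.53) and of 12 neutrophil markers 9 did (median -0.62). Under bacterial control scaling these medians were -0.22 and -0.27, and the neutrophil one was -0.24 on type A alone and -1.31 with a 30th percentile floor. Macrophage markers summed to 144574 in deficient cells and 183784 in wild-type cells on A, and to 317089 in deficient cells and 383451 in wild-type cells on B. Neutrophil markers summed to 106876 in deficient cells and 137933 in wild-type cells on A, and to 34656 in deficient cells and 50812 in wild-type cells on B. Of macrophage markers Mrc1 and Cd14 were lower by 2-fold or more at -2.30 and -1.03, against 3.64% of all genes with a ratio. Msr1 was so by 1 probe set (3954 in deficient cells and 11793 in wild-type cells) and not by the other (-0.87). Mpeg1, Cd68 and Csf1r stood at 0.67, 0.29 and 0.84. Of neutrophil markers Il1r2, Ngp, Ly6g and Csf3r were lower by 2-fold or more, against 3.64% of all genes with a ratio, and Cxcr2 was by its bound. S100a8 and S100a9 stood at -0.079 and -0.24 and Mpo and Elane above 0 at 0.36 and 0.11. B cell markers had a median of -0.11 over 5 genes (0.093 under bacterial control scaling), with Ighm at -0.50. Ms4a1 stood at 0.48 by 1 probe set and at -0.30 by another. No T cell marker had a ratio, and 5 of 7 were below the floor in both genotypes. The part of these cell types in the lower matrix readings was not tested.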

How the data were processed

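The authors deposited 1 whole-number intensity per probe set and array, linear in scale, of which 20.6% to 29.3% were below 0. How the authors scaled them is not stated in the labels. Groups came from the sample titles. Gene names came from the platform annotation: 7542 probe sets had 1 symbol, 224 several and 5303 none, and all 54 matrix probe sets matched a RefSeq gene on GRCm38.p6.

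Within a type the arrays were scaled to a common mean after leaving out 2% at each end, by factors of 0.9998 to 1.0002. Printed intensities are the deposited ones. A gene was read by the measured probe set highest relative to the floor. With 1 array per genotype and type no p-value is given, and the number of arrays limits the precision. The members, the lists and the tests were chosen with earlier results of these data known. Every matrix gene with a ratio or bound was named. From the other lists, genes past 2-fold, up to 4 genes of highest signal, and some others were named, the last picked with their values known. Alternatives were 5 scalings, 2 floors, 3-fold, 1 array type at a time, the mean over probe sets and leaving out suffixed probe sets (such as family ones), with 3 more added after seeing the data. The steps were tested on simulated arrays. Tables were handled with pandas 2.3.3 and numpy 2.4.6 in Python 3.11.15, loess came from statsmodels 0.14.6, correlations from scipy 1.17.1 and plots from matplotlib 3.10.9.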

Additional observations from a re-analysis of the deposited data

How the results depend on the processing

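The median of the matrix genes was -0.36 with equal medians and -0.43 with a 70th percentile floor, and stayed below 0 in all 13 alternatives. The 4 member probe sets lower by 2-fold or more became 1 at 3-fold and with a 70th percentile floor (Col3a1), 0 on array type A alone and 2 without suffixed probe sets, which removes both of Sparc. They became 6 of 30 ratios with a 30th percentile floor. Under bacterial control scaling the count stayed at 4, but Col6a1 (-0.69) was no longer past 2-fold and Col1a1 (-2.11) was. The 1 higher, Col4a4, became 0 at 3-fold, on type A alone and with a 70th percentile floor. The 1 bound past 2-fold, Col1a1 on type B, became 0 on type A alone, under bacterial control scaling, with a 70th percentile floor and without suffixed probe sets, and 6 with a 30th percentile floor. Under bacterial control scaling the median of all probe sets moved to 0.21 on A and 0.36 on B, and Col1a1 had a ratio of -2.11 in place of its bound. The median of the other collagens reversed on type B alone (0.073) and under bacterial control scaling (0.11), and that of the receptors on type A alone (-0.11) and with a 70th percentile floor (-0.11). The cause was not tested, beyond the fewer probe sets that higher floors, 1 type or unsuffixed probe sets leave. No paired analysis was possible because the labels carry no replicate numbers and each genotype has 1 array per type.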
